A study of Drosophila melanogaster with 15 samples.

Results

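Astrocytes sorted from fly brains 24 hr after traumatic brain injury (TBI) were compared here with astrocytes sorted from uninjured brains, gene by gene. Expression was given as TPM, which scales transcript numbers, corrected for gene length, to the same total in every sample. Genes were compared where 5 or more of the 10 samples of both groups reached 1 TPM, which kept 7529 of the 17509 genes of the table. The study sorted astrocytes in these conditions and 4 hr after injury, with 5 samples per group, to find genes whose expression in astrocytes follows TBI. All groups carried *R86E01-Gal4* and *UAS-Redstinger*, which put a red nuclear protein into the cells in which the *R86E01* fragment is active. Flies of the 24 hr and 4 hr groups received strikes in a high-impact trauma (HIT) device at 3 days after eclosion, and uninjured flies received none. Their sex, and the age of uninjured flies at dissection, are not given in the sources used here. Brains of many flies were pooled before sorting, so that differences between single flies were not measured, and the cells stand for what 1 driver line marks. cDNA was made from polyadenylated RNA by Smart-seq2, which does not keep the strand of a transcript. A lower level of a transcript in such bulk samples can come from fewer cells of a type or from less RNA per cell, and these cannot be told apart.

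Fly astrocytes extend fine processes into the neuropil, where they clear the transmitters GABA and glutamate and recycle them for neurons. After injury, glia of the fly brain are known to engulf debris, to signal through Jun N-terminal kinase (JNK) and the transcription factor AP-1, a dimer of Jra (Jun) and kay (Fos), and to secrete the matrix metalloproteinase Mmp1. Toll and Imd are the main pathways of fly innate immunity and end in the NF-kB factors Dif, dl and Rel, which switch on antimicrobial peptide genes.

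The label was checked against astrocyte genes first. *alrm*, the gene most used to mark fly astrocytes, had 22515, 21668, 28298, 21526 and 21462 TPM 24 hr after TBI, against 19621, 20084, 30075, 13609 and 16230 TPM in uninjured astrocytes. *alrm* was thus abundant in all 10 samples and the groups overlapped. *Gat*, the GABA transporter, averaged 16277 ± 3041 TPM 24 hr after TBI and 17396 ± 4720 TPM in uninjured astrocytes (SD, n = 5 each). Of 8 astrocyte genes, none was called up- or downregulated, against 2.70% and 0.0664% of all genes. Their summed TPM was 62326 to 84423 at 24 hr, against 50859 to 81051 without injury. In the limma fit described below, 7 of the 8 had a log2 fold change above 0, with a median of 0.45, against 0.52 over all genes. At an adjusted p below 0.05 in that fit, 2 were higher, against 20.3% of all genes. These were *htl* and *Obp44a*, at 1.46 and 0.64 (adjusted p = 0.014 and 0.036). For 2 of the 8, all 24 hr samples lay above all uninjured ones, against 13.0% of all genes. A list of 13 neuronal genes summed to 32.4 to 182 TPM at 24 hr, against 21.1 to 56.9 TPM without injury, and 6 of them were too low to be compared.

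The samples differed in 1 respect that touches every value. Transcripts of the mitochondrial genome took 15.7%, 15.2%, 19.6%, 37.2% and 33.4% of TPM in the 24 hr samples, against 44.9%, 51.8%, 32.7%, 41.9% and 44.1% in uninjured samples. The groups overlapped, and the means differed by -18.9 percentage points (two-sided exact permutation test, p = 0.0238). Because TPM sums to the same total in each sample, a smaller mitochondrial share leaves more for all other genes. The median log2 fold change of the 7529 genes was 0.52. This median was 0.18 after the mitochondrial genome was removed and TPM rescaled, 0.09 with median-ratio size factors and -0.01 with quantile normalization, so that group differences below are best read against 0.52. The study gives an average number of reads per sample, but the depth of each sample is unknown, since the table holds no counts. Genes with a TPM above 0 numbered 9075 to 10005 at 24 hr and 8440 to 8737 without injury.

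**Figure D1:**
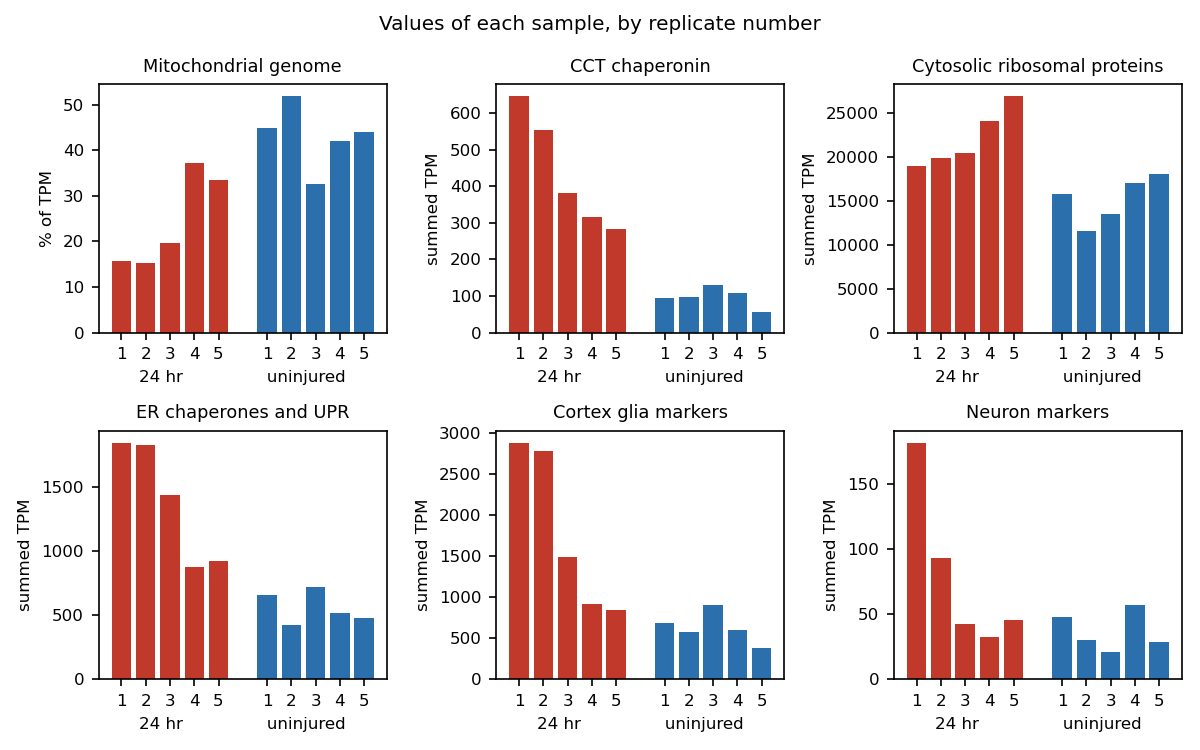
Percent of TPM from the mitochondrial genome and summed TPM of 5 gene lists (vertical axes) in each of 5 samples 24 hr after TBI and 5 uninjured samples (bars). Chaperonin (CCT) genes summed to 284 to 645 TPM at 24 hr and 57.4 to 131 TPM without injury. Within the 24 hr group, replicates 1 and 2 were the highest for the CCT, ER chaperone, cortex glia and neuron lists. They were the lowest for cytosolic ribosomal proteins.

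At 24 hr after TBI, 203 genes were upregulated in astrocytes, 2.70% of those compared, and 5 were downregulated, 0.0664%. A gene was called where limma, fitted to log2(TPM + 1) of all 15 samples, gave an adjusted p below 0.01 and a log2 fold change of at least 1 in size, on the scale of TPM + 1. Fold changes on this scale understate the change of genes with low TPM. All adjusted p values below come from this limma fit over all 7529 genes. The 203 genes had a median log2 fold change of 1.71, and for 199 of them all 5 samples at 24 hr lay above all 5 uninjured samples, which held for 13.0% of all genes compared. Calls rest on the same values as this separation, here and for downregulated genes below, so that it is no separate support. At an adjusted p below 0.05 with no limit on fold, 1529 genes were higher (20.3%) and 70 lower (0.930%). With size factors 53 genes were upregulated (0.704%), all of them among the 203. The count was 27 with the mitochondrial share as a covariate, 102 without the filter, 608 with the replicate number as a block and 620 with sample weights. Leaving out single samples also changed the count: it was 67, 83 and 74 without 24 hr replicates 1, 2 and 3, and 126, 84 and 115 without uninjured replicates 1, 2 and 5. Of the 203 genes, 62 were called whichever sample was left out. In 25 of the 203 genes every uninjured sample was under 1 TPM, so that they entered the comparison only through the 24 hr samples, as did 38 of all genes compared, and had to differ. These include *PGRP-SA*, *Tig*, *Ndc80*, *Nuf2*, *Orc1*, *Noc2*, *Nopp140*, *Dbp73D*, *lncRNA:CR46083* and *sona*, whose values are given below as a description. Labels do not say whether samples were prepared on different days.

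**Figure D2:**
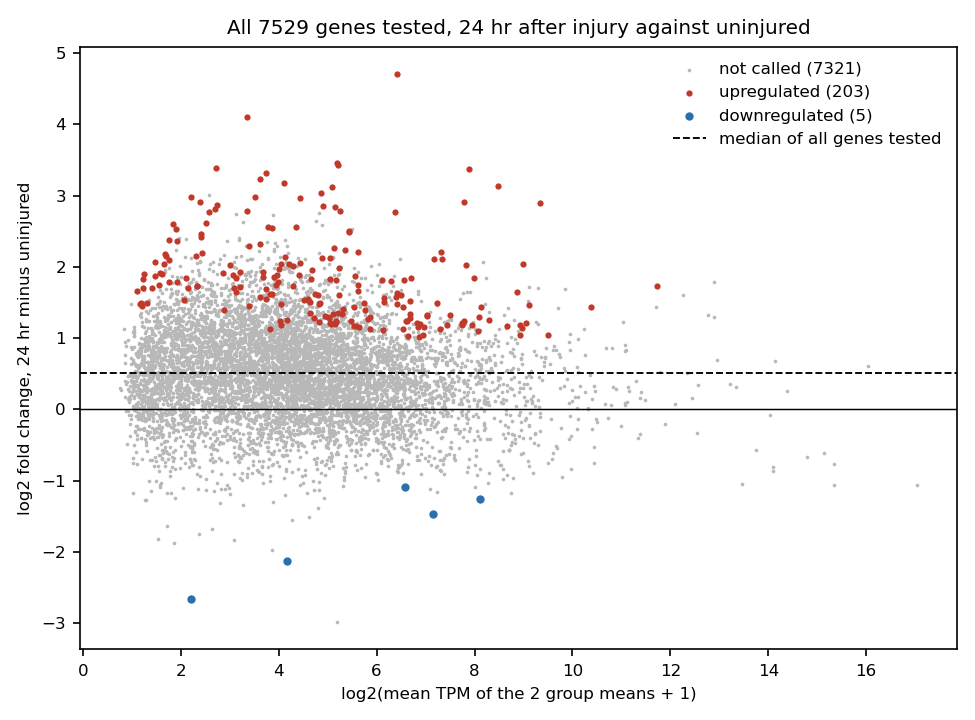
Log2 fold change of 24 hr after TBI over uninjured (vertical axis) against log2 of the mean TPM of both groups plus 1 (horizontal axis), 1 point per gene. Of 7529 genes, 203 were upregulated and 5 downregulated, and the median of all genes, the dashed line, lay at 0.52 above no change.

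The largest rises described next were chosen among genes whose groups did not overlap. The gene with the smallest p was *luna*, which encodes a Krüppel-like zinc finger transcription factor and lies at 2R:10977956-11116378 on the minus strand (dm6). *luna* had 655, 631, 609, 634 and 661 TPM 24 hr after TBI, against 49.7, 76, 95.8, 72.1 and 74.5 TPM in uninjured astrocytes. The 5 samples at 24 hr were nearly equal and lay far above every uninjured sample. Its log2 fold change was 3.13 ± 0.16 (SE, adjusted p = 1.9e-09), with 4 hr samples in between at 164 ± 12.6 TPM. *luna* was called with size factors and in each of the 15 fits that left a sample out.

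The largest log2 fold change belonged to *CG9689*, a gene known by its annotation number, at X:9881953-9883670. It had 178, 119.9, 128, 143 and 244 TPM 24 hr after TBI, against 4.27, 2.02, 1.62, 10.7 and 16 TPM without injury (log2 fold change 4.70 ± 0.42, adjusted p = 8e-06). *PGRP-SA*, which encodes a circulating peptidoglycan receptor upstream of Toll, was next. It had 23.6, 25.6, 5.46, 12.9 and 24.5 TPM at 24 hr and was listed at 0 in all 5 uninjured samples.

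*Tig*, which encodes the extracellular matrix protein Tiggrin, had 13.1, 13, 11.1, 11.7 and 6.45 TPM at 24 hr, against 0.19, 0.05, 0, 0.43 and 0 TPM without injury, a log2 fold change of 3.39. *GstT4*, a glutathione transferase gene, had 46.1, 63.1, 67.9, 65.4 and 69 TPM at 24 hr, against 5.37, 0.11, 8.9, 24.7 and 2.35 TPM in uninjured astrocytes (log2 fold change 3.46 ± 0.57). The 24 hr samples of *GstT4* were close to each other apart from replicate 1, the lowest, and the uninjured ones were uneven. *Npc2b*, a member of the Niemann-Pick type C2 family of sterol-binding proteins, had 25.2, 19.7, 18.1, 16.3 and 25.7 TPM at 24 hr, against 1.55, 0, 2.2, 2.59 and 1.22 TPM without injury. *QC*, which encodes a glutaminyl cyclase, had 25.2, 18.8, 27.1, 19.5 and 25 TPM 24 hr after TBI, against 3.49, 0.83, 1.72, 0 and 2.57 TPM without injury. The log2 fold changes of *Npc2b* and *QC* were 3.23 and 3.31, and in both genes the uninjured levels were a few TPM or less.

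*Tsf1*, which encodes the iron carrier transferrin, had 1007, 659, 279, 103 and 144 TPM at 24 hr, against 38.1, 12.1, 52.7, 35.6 and 22.9 TPM in uninjured astrocytes. The 24 hr samples were spread widely, with replicate 1 highest and replicate 4 lowest (log2 fold change 3.37 ± 0.69, adjusted p = 0.0065). *Tsf1* lost its call with size factors (adjusted p = 0.012) and in 8 of the 15 fits that left a sample out. *MFS9*, a transporter gene of the major facilitator superfamily, had 84.3, 57.4, 41.5, 29.6 and 29.5 TPM at 24 hr, against 0, 3.89, 3.34, 16 and 13.9 TPM without injury, and also lost its call with size factors. *CG9628* and *CG42390*, both known by annotation numbers, had log2 fold changes of 3.18 and 3.12.

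**Figure D3:**
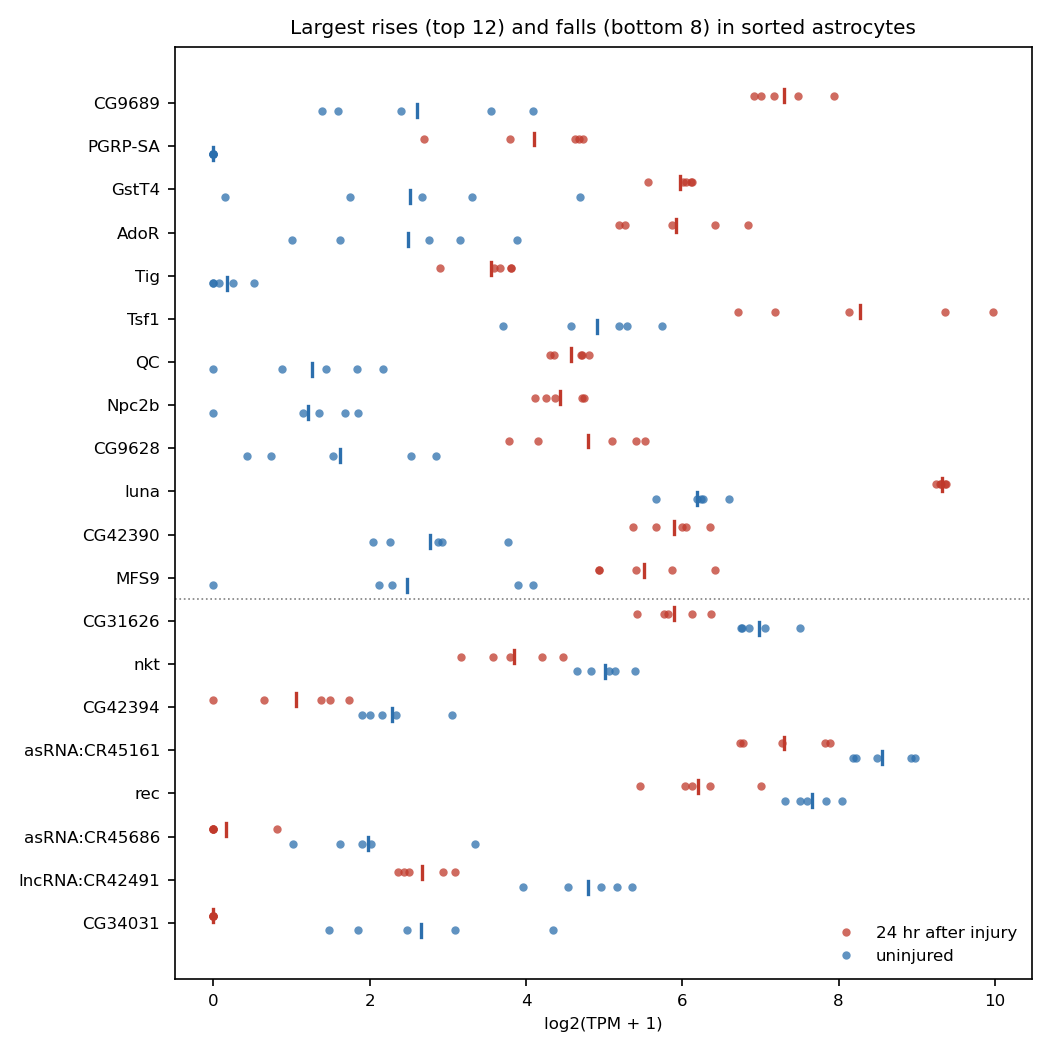
Log2(TPM + 1) (horizontal axis) of the 12 largest rises and 8 largest falls among genes whose groups did not overlap (vertical axis), with 5 samples 24 hr after TBI and 5 uninjured samples as points and group means as bars. *luna* had 609 to 661 TPM at 24 hr and 49.7 to 95.8 TPM without injury, and *PGRP-SA* was listed at 0 in all uninjured samples.

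Downregulation was rare. *lncRNA:CR42491* had 4.67, 4.44, 4.13, 6.64 and 7.55 TPM 24 hr after TBI, against 22.2, 30, 40, 14.6 and 34.8 TPM without injury (log2 fold change -2.13 ± 0.35, adjusted p = 0.0013). The groups did not overlap, as was the case for all 5 downregulated genes and for 0.545% of all genes compared in that direction, and 50.5% of its exonic length is shared with *RpL22*, whose reads cannot be told apart from it without strand. *CG34031* was listed at 0 in all 5 samples at 24 hr and had 7.55, 1.79, 19.4, 4.57 and 2.61 TPM without injury, and it entered the comparison only through the uninjured samples. *rec*, which encodes an MCM-like protein of meiotic recombination, had 43, 69.1, 64.5, 127 and 81.2 TPM at 24 hr, against 192, 181, 264, 158 and 229 TPM in uninjured astrocytes, with 26.6% of its exonic length shared with *alpha-Man-IIb*. *CG31626* and *asRNA:CR45161* had log2 fold changes of -1.09 and -1.25 and share 75.1% and 77.5% of their exonic length with another gene. All 5 calls held with size factors and with quantile normalization, which gave 23 (0.305%) and 29 downregulated genes in all, and none held with the mitochondrial share as a covariate. The call of *lncRNA:CR42491* held whichever sample was left out, whereas *CG34031*, *CG31626*, *asRNA:CR45161* and *rec* lost theirs in 4, 8, 9 and 10 of the 15 fits. The count of downregulated genes was 1 without 24 hr replicate 1, 2 or 3 or uninjured replicate 1, 2 without 4 hr replicate 3 or uninjured replicate 3 or 5, and 8 without 4 hr replicate 4. *nkt*, *CG42394* and *asRNA:CR45686* had log2 fold changes of -1.17, -1.24 and -1.82 and missed the threshold (adjusted p = 0.012, 0.030 and 0.021).

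The JNK and AP-1 pathway was taken first among gene groups, since astrocytic Pvr, AP-1 and Mmp1 are the subject of the study, and the list was therefore not chosen independently of these samples. Of 23 genes in the list, 19 were high enough to be compared, 3 were upregulated, against 2.70% of all genes, and 10 were higher at an adjusted p below 0.05, against 20.3%. The median log2 fold change of the 19 was 0.89, against 0.52 over all genes, and 0.43 against 0.09 with size factors. *Mmp1*, which encodes a secreted protease of the extracellular matrix, lies at 2R:24671294-24688184. It had 77.7, 79.1, 62.7, 48 and 53.5 TPM 24 hr after TBI, against 6.86, 7.49, 22.7, 7.63 and 3.97 TPM in uninjured astrocytes. The lowest 24 hr sample was above the highest uninjured one (log2 fold change 2.79 ± 0.33, adjusted p = 0.00021). *Gadd45*, a stress-response gene, had 9.99, 13.9, 16.4, 13.2 and 8.44 TPM 24 hr after TBI, against 1.85, 0.84, 5.93, 4.08 and 2.51 TPM without injury (log2 fold change 1.84, adjusted p = 0.0048), and lost its call with size factors.

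*AdoR*, the gene of the adenosine receptor, had 114, 84.8, 57.2, 37.6 and 35.4 TPM at 24 hr, against 7.93, 1, 13.8, 5.79 and 2.08 TPM without injury (log2 fold change 3.43 ± 0.52, adjusted p = 0.00080). The 5 samples at 24 hr all lay above the uninjured ones, although 60.1% of the exonic length of *AdoR* (3R:30134856-30149606) is shared with *asRNA:CR46082*.

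Neither subunit gene of AP-1 was called. *Jra* had 171, 174, 185, 168 and 126 TPM at 24 hr, against 77.5, 104, 103, 105 and 103 TPM without injury, with no overlap and a log2 fold change of 0.73 (adjusted p = 0.0082), under the fold limit. *kay* had 298, 246, 165, 93.5 and 124 TPM at 24 hr, against 63.2, 56.2, 104, 86.7 and 43.1 TPM in uninjured astrocytes, and the groups overlapped (log2 fold change 1.32, adjusted p = 0.031). With size factors *Jra* had 0.23 and *kay* 0.82 (adjusted p = 0.31 and 0.10). Upstream, *egr*, which encodes the fly tumour necrosis factor, had a log2 fold change of 1.71 (adjusted p = 0.036). The kinase genes *Tak1*, *Mkk4* and *hep* had values of 1.21, 1.08 and 0.97 (adjusted p = 0.043, 0.016 and 0.039). *bsk*, which encodes JNK itself, had -0.22 (adjusted p = 0.44), and *puc*, its phosphatase and a target of the pathway, had 0.36 (adjusted p = 0.15). *Mmp2* and *Timp*, the other matrix metalloproteinase and the inhibitor of both, had -0.04 and 0.58 (adjusted p = 0.92 and 0.080). *Pvr*, which encodes the receptor tyrosine kinase related to PDGF and VEGF receptors, was too low to be tested, at 0.67, 1.06, 0.48, 0.09 and 0.3 TPM 24 hr after TBI, against 0.5, 0.06, 0, 0.03 and 0 TPM in uninjured astrocytes. Its ligand genes *Pvf1* and *Pvf2* were also below the limit, and *Pvf3* had a log2 fold change of -0.05 (adjusted p = 0.93).

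Among innate immune genes, *PGRP-SA* and *Rel* were upregulated. They were 2 of 19 genes of the Toll and Imd pathways that were compared, of 21 in all, against 2.70% of all genes. *PGRP-SA* entered the comparison only through the 24 hr samples and had to differ, so it carries no weight in this count. Of the 19, 6 were higher at an adjusted p below 0.05, against 20.3% of all genes. The median log2 fold change of the list was 0.56, against 0.52 over all genes. *Rel*, the NF-kB factor of Imd, had 23.4, 22.8, 23.1, 16.7 and 20.6 TPM 24 hr after TBI, against 16.6, 4.86, 11, 8.55 and 5.12 TPM without injury (log2 fold change 1.24, adjusted p = 0.0096). Its lowest 24 hr sample barely exceeded its highest uninjured one, and its call was lost with size factors and in 12 of the 15 fits without a sample. *cact*, which encodes the inhibitor that holds Dif and dl in the cytoplasm, had 1.14 (adjusted p = 0.011), and *Dif* and *dl* had 0.52 and 0.42 (adjusted p = 0.19 and 0.22). None of 14 antimicrobial peptide genes was high enough to be compared, and their summed TPM was 4.26, 2.91, 0, 2.44 and 31.3 at 24 hr, against 9.81, 0, 0, 4.60 and 4.52 without injury. The last 24 hr value came from *Mtk*, at 30.3 TPM in that sample. Of 11 engulfment genes around the receptor Draper none was called, against 2.70% of all genes upward. At an adjusted p below 0.05, 4 were higher and 1 lower, against 20.3% and 0.930% of all genes, with *drpr* itself at 0.87 (adjusted p = 0.020).

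All 8 genes of the cytosolic chaperonin CCT, the folding chamber for actin and tubulin, were upregulated at 24 hr, against 2.70% of all genes. Their summed TPM was 645, 553, 380.0, 317 and 284 at 24 hr, against 95.6, 96.5, 131, 107 and 57.4 in uninjured astrocytes. No subunit overlapped between groups, and 13.0% of all genes had all 5 samples at 24 hr above all 5 uninjured samples. The median log2 fold change of the 8 was 2.02, against 0.52 over all genes. *CCT5* had 91.5, 85.6, 54.9, 39.9 and 35.2 TPM at 24 hr, against 3.7, 5.65, 12.1, 12.9 and 5.06 TPM without injury (log2 fold change 2.85 ± 0.43, adjusted p = 0.00083). *CCT1* had 50.5, 38, 32, 20.1 and 28.6 TPM at 24 hr, against 8.16, 3.29, 4.99, 5.27 and 3 TPM in uninjured astrocytes (log2 fold change 2.56 ± 0.35). The smallest log2 fold change was that of *CCT4*, at 1.82. The median was 1.55 with size factors, which called *CCT1*, *CCT4* and *CCT5*, the same 3 that were called whichever sample was left out. Of 4 prefoldin genes compared, which hand nascent chains to CCT, none was called, against 2.70% of all genes upward.

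Among other chaperone genes, *Hsc70-4* and *Calr* were upregulated. *Hsc70-4*, the constitutive cytosolic HSP70 gene, had 637, 552, 385, 212 and 210.4 TPM 24 hr after TBI, against 154, 68.1, 122, 119 and 64.8 TPM without injury (log2 fold change 1.84, adjusted p = 0.0095), and was the 1 upregulated gene of 15 heat shock genes compared, against 2.70% of all genes. Its call was lost with size factors. *Hsp83*, the HSP90 gene, had 0.98 (adjusted p = 0.0067), just under the fold limit. Of 9 genes of the endoplasmic reticulum chaperones and the unfolded protein response, 8 were higher at an adjusted p below 0.05, against 20.3% of all genes, and *Calr* was upregulated. Their median log2 fold change was 1.32, and 0.82 with size factors, which called none of the 9. *Calr*, which encodes calreticulin, had 230.4, 230.3, 216, 128 and 133 TPM at 24 hr, against 77.9, 67.1, 95.5, 54.7 and 70.4 TPM without injury (adjusted p = 0.0080). *Hsc70-3*, which encodes BiP, had 171, 152, 81.8, 51.3 and 51.5 TPM at 24 hr, against 34, 10.7, 40.4, 19.9 and 23.7 TPM in uninjured astrocytes (log2 fold change 1.88, adjusted p = 0.020). *Xbp1*, the transcription factor of the unfolded protein response, had 615, 611, 451, 224 and 298 TPM 24 hr after TBI, against 206, 113, 219, 129.9 and 98.4 TPM without injury (log2 fold change 1.48, adjusted p = 0.014). In the 24 hr group, replicates 1 and 2 were the highest for *Calr*, *Hsc70-3* and *Xbp1*, and replicates 4 and 5 the lowest.

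In the 24 hr group, replicates 1 and 2 were also the highest for the summed markers of cortex glia, surface glia and neurons. The neuron markers summed to 182, 93.2, 42.4, 32.4 and 45.3 TPM in the 24 hr samples. The part of these cells in the results was not tested. *Cyp4g15*, a cortex glia gene, had 2006, 2036, 1031, 633 and 527 TPM at 24 hr, against 463, 434, 631, 376 and 209.8 TPM without injury. The 5 cortex glia genes summed to 842 to 2880 TPM at 24 hr, against 381 to 907 TPM without injury. Of the 5, 4 were higher at an adjusted p below 0.05, against 20.3% of all genes, and none was called. *wrapper*, another cortex glia gene, had 30.7, 12.5, 5.11, 3.13 and 18.9 TPM at 24 hr, against 0.06, 0, 0.96, 6.02 and 0.1 TPM without injury (adjusted p = 0.014). Ensheathing glia markers summed to 419 to 869 TPM at 24 hr, against 240 to 332 TPM without injury. All 3 compared were higher at an adjusted p below 0.05, against 20.3% of all genes. Their median log2 fold change was 1.24, against 0.52 over all genes, and 0.74 with size factors. Of the 3, 1, *Ntan1*, was upregulated, against 2.70% of all genes, and lost its call with size factors. Surface glia markers summed to 561 to 1278 TPM at 24 hr, against 256 to 366 TPM without injury. *SPARC*, an extracellular matrix gene, was the 1 of 5 compared that was upregulated, against 2.70% of all genes, and lost its call with size factors. It averaged 812 ± 259 TPM at 24 hr and 286 ± 57.8 TPM without injury (SD, n = 5 each). Hemocyte markers summed to 109 to 172 TPM at 24 hr, against 68.1 to 154 TPM without injury, with *He* and *eater* at 0 in all 10 samples.

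The translation genes *eEF1alpha1*, *eEF2* and *Rack1* were upregulated. *eEF1alpha1*, which encodes the factor that brings aminoacyl-tRNA to the ribosome, had 2454, 1919, 2090, 1647 and 1586 TPM at 24 hr, against 811, 633, 857, 681 and 581 TPM in uninjured astrocytes. The groups were well apart (log2 fold change 1.44 ± 0.19, adjusted p = 0.00032). *eEF2*, the translocation factor, had a log2 fold change of 1.56 and *Rack1*, which encodes a protein of the small subunit, 1.25. These were the 3 upregulated genes among 8 elongation genes compared, against 2.70% of all genes, in a list put together after its values had been seen. Of 82 cytosolic ribosomal protein genes compared, 10 were upregulated, against 2.70% of all genes, and 32 were higher at an adjusted p below 0.05, against 20.3%. Their median log2 fold change was 0.53, against 0.52 over all genes, and with size factors it was 0.04 against 0.09. Size factors called 1 of the 82. *RpL3* had 231, 207, 152, 109 and 109.5 TPM 24 hr after TBI, against 64.3, 19.6, 54.4, 55.1 and 35.8 TPM without injury (log2 fold change 1.84, adjusted p = 0.0042), with 18.5% of its exonic length shared with an antisense gene. *RpL4* and *RpL7A* had log2 fold changes of 1.50 and 1.52, and *RpL4* was called with size factors while *eEF1alpha1*, *eEF2*, *Rack1*, *RpL3* and *RpL7A* were not. Of 36 initiation factor genes, *eIF3b*, *eIF3f1* and *eIF2alpha* were upregulated, against 2.70% of all genes, and size factors called none. The median of the group was 0.44 but -0.05 with size factors.

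Ribosome assembly, nuclear transport and aminoacyl-tRNA synthetases made up gene groups that were put together after their values had been seen, and they get no test as groups. Of 41 ribosome biogenesis genes compared, 10 were upregulated and 30 were higher at an adjusted p below 0.05, against 2.70% and 20.3% of all genes. Their median log2 fold change was 1.14, and 0.69 with size factors, and *Noc2*, *Nopp140* and *Dbp73D* entered only through the 24 hr samples. *CG4364*, whose human counterpart is the ribosome biogenesis factor PES1, had 105, 104, 60.6, 37.9 and 53.6 TPM at 24 hr, against 3.65, 10.3, 15.2, 22 and 11.8 TPM without injury (log2 fold change 2.50, adjusted p = 0.0026). *Nopp140*, a nucleolar phosphoprotein gene, and *Dbp73D*, an RNA helicase gene, had 2.41 and 2.18. *Tif-IA*, which encodes an initiation factor of RNA polymerase I, went the other way, at -0.77 (adjusted p = 0.031). *Myc*, the growth regulator, averaged 63.8 ± 9.96 TPM at 24 hr and 27.8 ± 4.96 TPM without injury, with 40.9% of its exonic length shared with *CG12535*. Of 26 nuclear transport genes, 5 were upregulated, against 2.70% of all genes, among them *RanGAP* at 1.96. The importin genes *msk* and *Karybeta3* were also among them, at 1.83 and 1.63. The median of the 26 was 0.90, and 0.53 with size factors, which called 1 of them. Of 18 aminoacyl-tRNA synthetase genes 8 were higher at an adjusted p below 0.05, against 20.3% of all genes. *AlaRS* was upregulated, at 2.13, and lost its call with size factors.

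A pair of kinetochore genes belonged to the 7 upregulated genes that were listed at 0 in every uninjured sample. *Ndc80* had 8.61, 11.5, 5.69, 4.59 and 5.69 TPM and *Nuf2* had 4.07, 5.62, 6.03, 6.23 and 3.9 TPM 24 hr after TBI. Their proteins form 1 complex that holds microtubules in mitosis. *Orc1*, of the origin recognition complex, had 7.78, 9.2, 5.97, 1.31 and 2.85 TPM at 24 hr, against 0, 0.49, 0, 0 and 0.06 TPM in uninjured astrocytes. These 3 were the upregulated genes among 20 kinetochore and replication licensing genes compared, against 2.70% of all genes. The group was also chosen after its values had been seen. All 3 entered the comparison only through the 24 hr samples and had to differ, so that their count carries no weight.

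Of 17 actin, capping and severing genes compared, 6 were upregulated, against 2.70% of all genes, and 12 were higher at an adjusted p below 0.05, against 20.3%. Their median log2 fold change was 1.17, and 0.71 with size factors, which called 2 of the 17. *Act5C*, a cytoplasmic actin gene, had 955, 833, 783, 463 and 541 TPM 24 hr after TBI, against 231, 188, 275, 228 and 188 TPM without injury (log2 fold change 1.64 ± 0.26, adjusted p = 0.00099). *capt*, which encodes an actin-monomer binding protein, had 1.82, *Fim*, the fimbrin gene, 1.44, and *rhea*, the talin gene, 1.41. The myosin light chain genes *sqh* and *Mlc-c* had 0.11 and 0.40 (adjusted p = 0.62 and 0.098). *Vrp1*, which encodes a verprolin that binds WASp, had 385, 329, 299.9, 142 and 153 TPM at 24 hr, against 39.3, 34.2, 80.5, 72.5 and 45 TPM without injury (log2 fold change 2.21, adjusted p = 0.00099). *Vrp1* and *Arpc1*, a subunit of Arp2/3, were the upregulated genes among 15 of that complex and its activators, against 2.70% of all genes. Size factors called 1 of the 15. Of 5 tubulin genes compared, *alphaTub84B* and *betaTub56D* were upregulated, at 1.93 and 1.13, and both lost their calls with size factors. *alphaTub84D*, which was more abundant than *alphaTub84B*, had 0.65 (adjusted p = 0.14), and its groups overlapped.

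Of the Idgf family of secreted, chitinase-like growth factors, *Idgf4* and *Idgf3* were upregulated. *Idgf4* had 233, 169, 149, 64.6 and 94.6 TPM at 24 hr, against 17.6, 5.03, 34.6, 32.1 and 18.1 TPM in uninjured astrocytes (log2 fold change 2.77, adjusted p = 0.0030). *Idgf3* had 375, 296, 297, 169.7 and 166 TPM 24 hr after TBI, against 60.6, 29.4, 98.6, 65 and 49.6 TPM without injury (log2 fold change 2.11, adjusted p = 0.0015). Both were apart between groups and called with size factors. *Idgf1* and *Idgf2* had 0.65 and 0.97 (adjusted p = 0.31 and 0.045) and were not called, and *Idgf5* and *Idgf6* were too low to be compared. *NijA*, which encodes the membrane protein Ninjurin A, had 8.96, 1.71, 7.13, 15.9 and 5.79 TPM at 24 hr, against 0, 0, 4.08, 0 and 0 TPM without injury (adjusted p = 0.0063). Its groups overlapped through a single uninjured sample, and its call was lost with size factors.

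**Figure D4:**
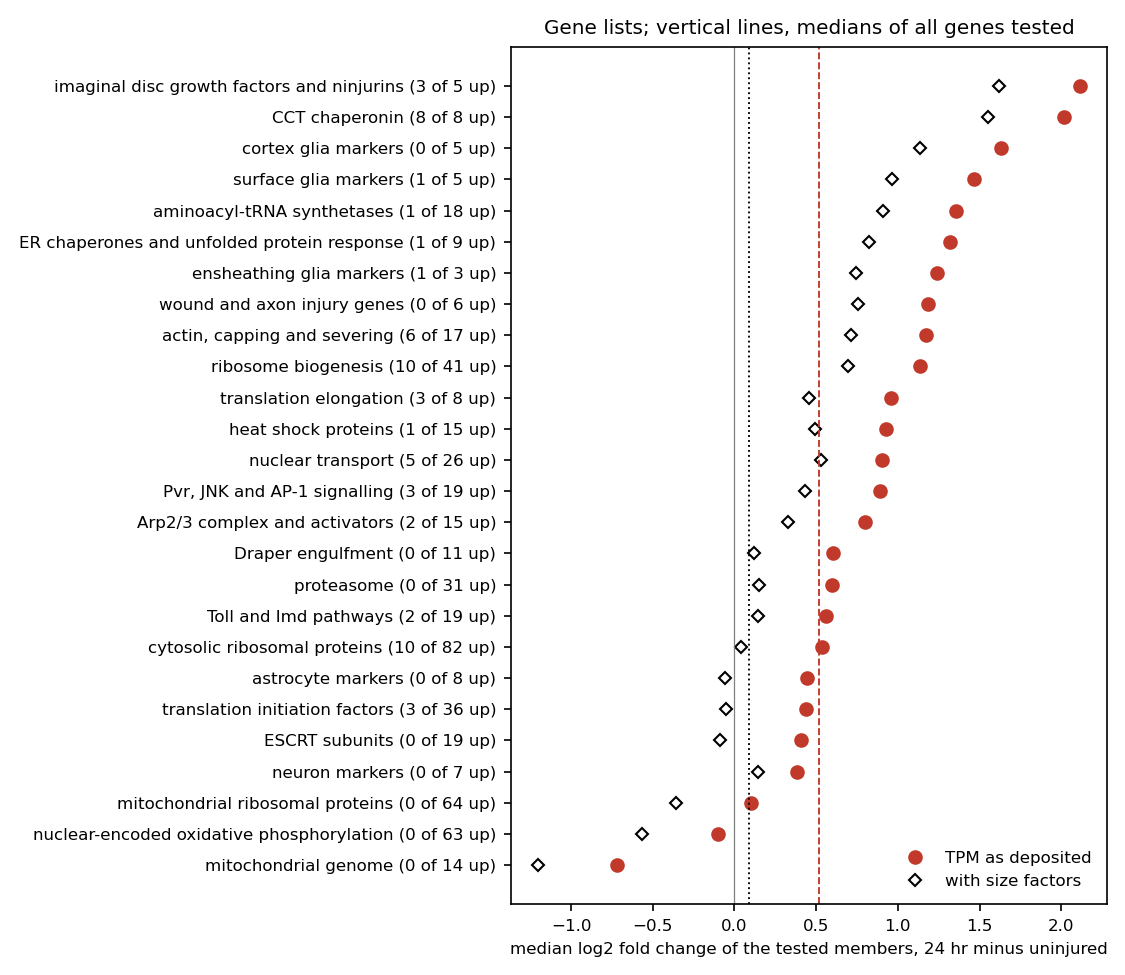
Median log2 fold change of 24 hr after TBI over uninjured (horizontal axis) for each gene list (vertical axis), as deposited (filled circles) and with size factors (open diamonds), with the median of all genes for each as a vertical line. Of the lists drawn, the growth factor and ninjurin list had the highest median as deposited, at 2.11, the CCT list followed at 2.02, and the mitochondrial genome was lowest, at -0.72.

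In many gene groups no member was called. None of 31 proteasome genes, 63 nuclear-encoded oxidative phosphorylation genes, 64 mitochondrial ribosomal protein genes, 23 Rab genes or 12 glycolysis genes passed the threshold, which 2.70% of all genes passed upward. Of the proteasome genes 12 were higher at an adjusted p below 0.05, against 20.3% of all genes, and their median was 0.60, and 0.15 with size factors. The oxidative phosphorylation genes had a median log2 fold change of -0.10, and -0.57 with size factors, with 1 higher and 2 lower at an adjusted p below 0.05. The 14 transcripts of the mitochondrial genome had a median of -0.72, and 13 were below 0, without a call. *mt:ATPase6* had -1.06 (adjusted p = 0.061), whereas the small ribosomal RNA *mt:srRNA* had 0.94 (adjusted p = 0.26). Of the 19 subunit genes of ESCRT, which sorts receptors into late endosomes, 7 were higher at an adjusted p below 0.05 and none was called, and their median was 0.41 but -0.09 with size factors. Of 14 clathrin and dynamin genes 2 passed an adjusted p of 0.05, and their median of 0.53 was -0.02 with quantile normalization.

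Other short lists held members that were higher at 24 hr without reaching the threshold. At an adjusted p below 0.05, which 20.3% of all genes passed upward, 5 of 11 antioxidant and ferritin genes were higher, among them both ferritin subunit genes, *Fer1HCH* at 0.86 and *Fer2LCH* at 0.77 (adjusted p = 0.016 and 0.014). By the same measure 4 of 6 wound and axon injury genes were higher, led by *Sarm*, which acts in axon degeneration, at 1.62 (adjusted p = 0.017). So were 4 of 9 circadian genes, among them *cry*, the blue light receptor gene, at 0.84 (adjusted p = 0.034). Of 20 glutathione transferase genes, *GstT4* was the upregulated member, *GstD1* had -0.86 (adjusted p = 0.049), and the median of the list was 0.01 but -0.47 with size factors. None of 6 JAK-STAT genes compared was called, by a threshold that 2.70% of all genes passed upward. *upd2*, a ligand gene of that pathway, was too low to be compared, with 3.77, 1.21, 1.84, 0.25 and 1.24 TPM at 24 hr, and was listed at 0 in all 5 uninjured samples. *NimA*, which encodes a Nimrod receptor, was also too low, with 3.55, 4.5, 0.87, 2.93 and 1.07 TPM at 24 hr, against 0.04, 0, 0, 0 and 0 TPM without injury.

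Single genes of astrocyte metabolism and transport did pass. *Gdh*, glutamate dehydrogenase, had a log2 fold change of 1.86 and averaged 19 ± 4.7 TPM at 24 hr and 4.54 ± 1.58 TPM without injury. *kcc*, a potassium and chloride cotransporter gene, had 1.34, *NLaz*, an apolipoprotein D homologue, 1.27, and *ref(2)P*, which encodes an autophagy receptor, 1.44. *Diap1*, which encodes an inhibitor of caspases, had 1.19. None of these 5 was called with size factors.

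The 4 hr samples were used to place the 24 hr levels. Both comparisons share the uninjured samples, so that their fold changes are not independent, and the direct difference between 24 hr and 4 hr was tested in the same fit. At 4 hr 423 genes were upregulated (5.62%) and 17 downregulated (0.226%), and 96 of the 203 genes upregulated at 24 hr were upregulated at 4 hr too. The 4 hr counts leave out genes that reach the TPM limit only with the 4 hr samples. A filter over all 15 samples kept 8101 genes in place of 7529. Of the 203, 19 were lower at 24 hr than at 4 hr and 8 higher by the same thresholds, which 1.35% and 0.425% of all genes passed. *Mmp1* averaged 9.73 ± 7.4 TPM in uninjured astrocytes, 319 ± 106 TPM at 4 hr and 64.2 ± 14 TPM at 24 hr, and the difference of 24 hr from 4 hr was -2.26 ± 0.33 on the log2 scale (adjusted p = 0.00049). *Act5C* averaged 222 ± 36.2, 2528 ± 898 and 715 ± 206 TPM in that order of times (24 hr minus 4 hr -1.79, adjusted p = 0.00035). *Rel* averaged 9.22 ± 4.85, 91.2 ± 12.9 and 21.3 ± 2.8 TPM (-2.05, adjusted p = 0.00018), and *Orc1* 0.11 ± 0.214, 82.5 ± 18.3 and 5.42 ± 3.3 TPM (-3.87, adjusted p = 5.5e-06). *Drat*, which encodes a protein related to alcohol dehydrogenases, averaged 10.4 ± 2.65, 1218 ± 567 and 57.1 ± 24.6 TPM, and *CG4020* averaged 2.54 ± 2.01, 160.4 ± 27.5 and 11.5 ± 2.41 TPM. Their differences of -4.35 and -3.69 between 24 hr and 4 hr were chosen for mention after being seen.

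Several genes of the JNK and AP-1 list were also lower at 24 hr than at 4 hr. *Jra* averaged 98.5 ± 11.8, 447 ± 55 and 165 ± 22.8 TPM without injury, at 4 hr and at 24 hr (-1.44, adjusted p = 2.1e-05). *Atf3*, which encodes a bZIP partner of Jra, had a log2 fold change of -0.18 at 24 hr over uninjured and -1.57 over 4 hr (adjusted p = 0.00049). *Ets21C*, an ETS-factor gene induced by JNK, differed by -2.30 from its 4 hr level (adjusted p = 0.0063), with 28.3% of its exonic length shared with *nAChRbeta3*. *AdoR* averaged 6.12 ± 5.12, 290.1 ± 159.7 and 65.7 ± 33.3 TPM, and its difference of -2.06 missed the threshold (adjusted p = 0.027).

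The 8 genes that were higher at 24 hr than at both other times were *luna*, *lncRNA:CR46083*, *rdog*, *Aldh7A1*, *Poc1*, *sona*, *CG5895* and *scrib*. Some of these were named after their values had been seen. *luna* averaged 73.6 ± 16.4, 164 ± 12.6 and 638 ± 21 TPM at the 3 times, a difference of 1.95 ± 0.16 between 24 hr and 4 hr (adjusted p = 7e-07). *rdog*, which encodes an ABC transporter, averaged 6.19 ± 2.08 TPM without injury and 5.7 ± 2.04 TPM at 4 hr, and had 19, 19.3, 22.5, 15.5 and 27.3 TPM at 24 hr (24 hr minus 4 hr 1.72, adjusted p = 0.0012). *scrib*, the cell polarity scaffold gene, averaged 28.7 ± 8.8, 28.6 ± 8.38 and 64.3 ± 10.1 TPM (24 hr minus 4 hr 1.18, adjusted p = 0.0099). *CG5895* averaged 315 ± 56.9, 307 ± 124 and 743 ± 191 TPM. *Aldh7A1*, an aldehyde dehydrogenase gene, averaged 0.352 ± 0.732, 0.66 ± 0.76 and 4.42 ± 1.49 TPM, and *sona*, which encodes a secreted metalloprotease, averaged 0.3 ± 0.366, 0.326 ± 0.193 and 2.66 ± 1.04 TPM. *Poc1*, a centriole gene, averaged 11.7 ± 4.35, 11.3 ± 5.15 and 34.6 ± 7.41 TPM. With size factors, 11 genes in place of 27 were called both at 24 hr over uninjured and between 24 hr and 4 hr. This number was 12, 14 and 13 without 24 hr replicates 1, 2 and 3, and 16 without 4 hr replicate 3 or without uninjured replicate 1 or 2.

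**Figure D5:**
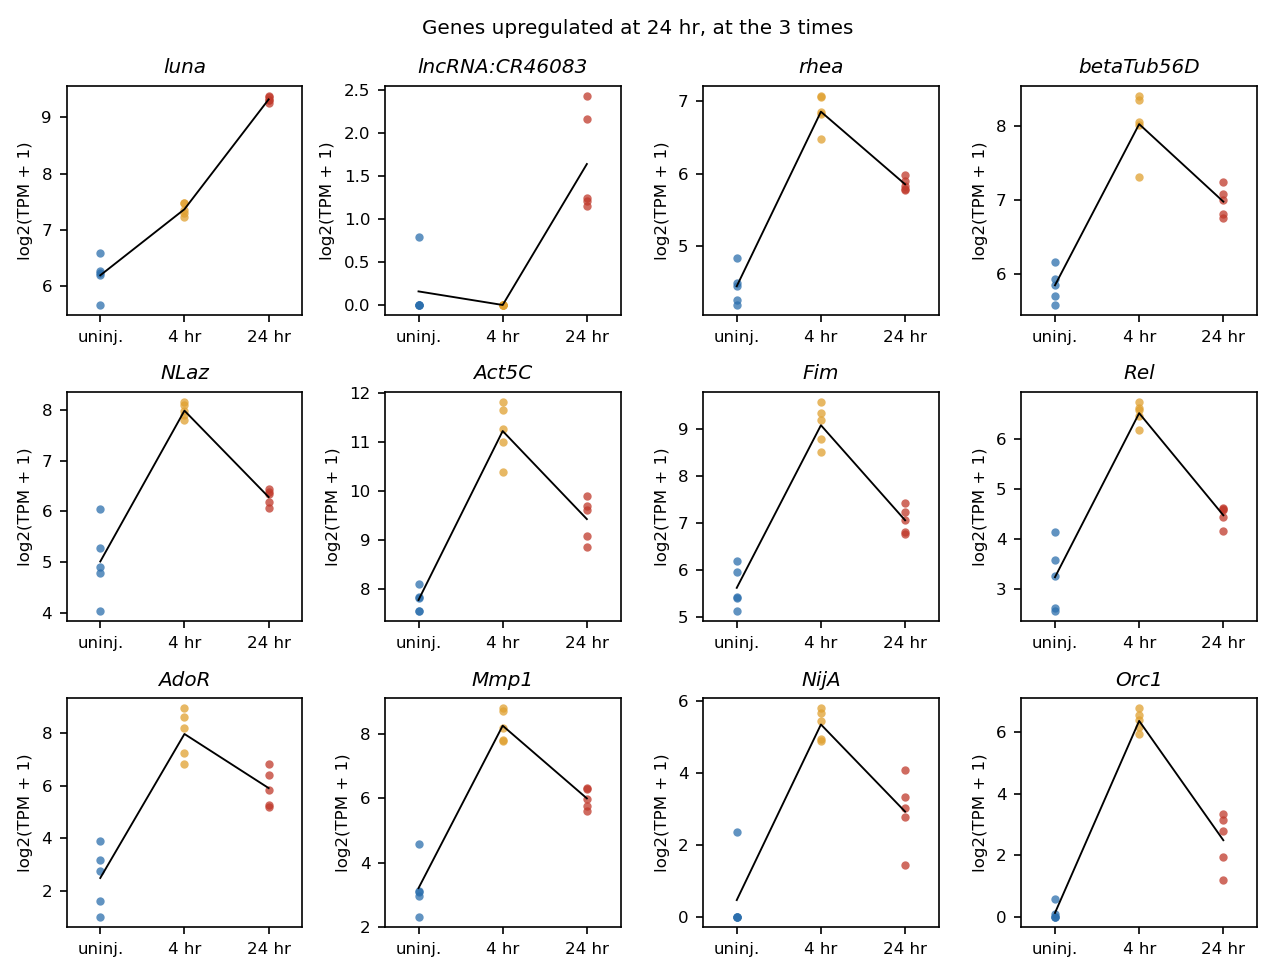
Log2(TPM + 1) (vertical axes, which do not start at 0) of 12 genes in 5 uninjured samples, 5 samples 4 hr and 5 samples 24 hr after TBI (points, with lines through the group means). *Mmp1* was highest at 4 hr, with a mean of 319 TPM, and *luna* at 24 hr, with a mean of 638 TPM.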

How the data were processed

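RNA was sequenced from Redstinger-positive brain cells sorted from uninjured flies and from flies 4 hr and 24 hr after TBI, with 5 samples each, and the authors deposited 1 table of TPM per gene and sample. Per the labels, processing used Trimmomatic 0.39, STAR 2.6.0a and RSEM 1.3.1 as well as HISAT2, HTSeq and DESeq2 1.30.1 on dm6, according to the submitters' processing notes. How the TPM were computed is not given in the sources used here. TPM are not counts, so no count model was run, and the depth of each sample is unknown.

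Values were taken as log2(TPM + 1). The 7529 genes that reached 1 TPM in 5 or more of the 10 samples were fitted over all 15 samples by limma 3.58.1 (R 4.3.3) with a variance trend, 1 coefficient per group, no covariate and Benjamini-Hochberg adjustment. Genes with an adjusted p below 0.01 and a log2 fold change of at least 1 in size were called. The code was checked on simulated data. The samples are stated to be biological replicates. The Ensembl annotation of BDGP6 (dm6) gave positions and exon overlap for 17398 of 17509 genes. Gene lists are described by counts and medians, to be read beside those of all genes, without a test of the list.

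The genes named were the 12 largest rises with groups apart, all falls and the largest further ones up to 8, called and abundant members of each list, and cell type markers. Genes higher or lower than at 4 hr, *Myc* and *Tif-IA* were named after their values were seen. Gene lists and comparisons were chosen with earlier results of these data known, and the lists of ribosome biogenesis, nuclear transport, translation elongation, aminoacyl-tRNA synthetases and kinetochore genes after their values were seen. Alternatives covered the pseudocount, the filter, the samples fitted, the trend, size factors, quantile normalization, removal of the mitochondrial genome, sample weights, a mitochondrial covariate, the replicate number as a block, the threshold and leaving out each sample.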

Additional observations from a re-analysis of the deposited data

Results flagged for a closer look

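In 3 of the 40 groups of values that were checked, a single sample stood far from the other 4 of its group. Chance does this in about 1 in 20 groups of normally distributed values. That rate does not strictly apply here, since the genes checked were chosen by their values. A group with 4 equal values is always flagged. *GstT4* had 46.08 TPM in 24 hr replicate 1, below the others at 24 hr and still above every uninjured sample. *Tig* had 6.45 TPM in 24 hr replicate 5, the lowest of that group. *asRNA:CR45686*, which shares 77.0% of its exonic length with *CG42676*, had 0.75 TPM in 24 hr replicate 5 and was listed at 0 in the other 4.

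Of the 70 called genes that the naming rule chose, 11 differed between 24 hr and 4 hr after TBI in the direct test of the limma fit. Of these 11, on the log2 scale, *luna* and *lncRNA:CR46083* were higher at 24 hr than at 4 hr, by 1.95 and 1.64. The actin and adhesion genes *Act5C*, *Fim* and *rhea* differed by -1.79, -2.02 and -1.0, and the tubulin gene *betaTub56D* by -1.05. *Mmp1* and *NijA* differed by -2.26 and -2.42. The replication gene *Orc1* had the largest difference of the 11, at -3.87, and *Rel* and *NLaz* had -2.05 and -1.70.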

How the results depend on the processing

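The count of 203 upregulated genes was 102 without a filter on low TPM, 53 with size factors, 54 with quantile normalization, 74 with the mitochondrial genome removed, 620 with sample weights, 27 with the mitochondrial share as a covariate and 1076 at an adjusted p below 0.05. The count of 5 downregulated genes was 3 with a pseudocount of 0.1, 1 without a filter, 2 without a variance trend, 23 with size factors, 29 with quantile normalization, 8 with the mitochondrial genome removed, 11 with sample weights, 0 with the mitochondrial covariate (limma, with 137 lower at an unadjusted p below 0.05) and 21 at an adjusted p below 0.05. The 27 genes called at 24 hr that differed from 4 hr became 11 with size factors, 12 with quantile normalization, 17 with the mitochondrial genome removed, 59 with sample weights, 9 with the mitochondrial covariate and 89 at an adjusted p below 0.05. The median log2 fold change of 0.52 was 0.26 without a filter, 0.18 with the mitochondrial genome removed, 0.09 with size factors and -0.01 with quantile normalization. The cause of these changes was not tested. Leaving out single samples gave 67 to 285 upregulated genes, 1 to 8 downregulated genes, 12 to 27 differences from 4 hr, a median of 0.48 to 0.58, and mitochondrial shares lower by 16.6 to 22.1 percentage points at 24 hr.

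With the replicate number as a block, 608 genes were upregulated, 14 downregulated and 50 different from 4 hr. The deviations of same-numbered samples correlated at -0.04 to 0.22 between 24 hr and uninjured and at -0.02 to 0.58 between 24 hr and 4 hr, where replicates 1 and 2 of both times deviated together, as did replicates 4 and 5, and replicate 3 did not. With not every pair correlated, the numbers were not taken to pair the samples. Of the 70 called genes chosen by the naming rule, 32 were called with size factors, 34 with quantile normalization, 41 with the mitochondrial genome removed, 11 with the mitochondrial covariate, and all 70 with sample weights. The depth of each sample is unknown, and genes near 1 TPM carry the widest relative error.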
